A study of Mus musculus with 28 samples.

Results

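The expression of 9 genes that the circadian clock drives, or that form its secondary loops, was followed in liver and kidney after mice had been given nicotinamide mononucleotide (NMN), a precursor of NAD+. The genes were taken by name as Dbp, Tef, Hlf, Nfil3, Ciart, Bhlhe40, Bhlhe41, Rora and Usp2, and all 9 were found among the 54446 genes listed in each of the 28 libraries. Male mice, labelled as C57BL/6 and 8 weeks old (C57BL6J in the article), were gavaged for 7 days with NMN or with water. At 1340 mg/kg/d, given by gavage 1 time per day, 4 NMN and 4 water libraries represented each organ. At 2680 mg/kg/d, reached by gavage 2 times per day, 3 of each did. Water mice received no NMN, and for them 1340 and 2680 name the schedule, with water gavaged 1 or 2 times per day. Messenger RNA was sequenced, and 12688324 to 33872983 reads were counted in genes per library. The labels do not say that liver and kidney libraries of 1 number came from 1 mouse, the hour of tissue collection was not given in the sources used here, and the schedules were separate sets of libraries, so that schedule, experiment and sequencing run cannot be told apart.

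In the mammalian clock, the CLOCK and ARNTL (BMAL1) proteins switch on genes that carry E-box sequences, and their products feed back. Dbp, Tef and Hlf encode the PAR bZIP transcription factors, which activate genes through D-box sequences. Nfil3 encodes a bZIP repressor that binds the same D-boxes and whose RNA is known to peak when Dbp RNA is low. Ciart (Chrono), Bhlhe40 (Dec1) and Bhlhe41 (Dec2) encode repressors that act on CLOCK and ARNTL, Rora encodes a nuclear receptor that activates Arntl, and Usp2 encodes a deubiquitinase whose RNA cycles in many tissues. In liver and kidney, the PAR bZIP factors are known to control genes of drug and steroid metabolism.

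Because several of the genes varied together from library to library, the 250 bases upstream of their starts were searched for clock motifs on both strands (RefSeq promoters, GRCm38.p6). Of the 9 genes, 8 had a promoter entry and 3 of these held the E-box CACGTG. The upstream stretches of these 3 genes are shown 5′ to 3′ on the gene's strand, with the E-box in capitals, because they carry the binding letters of CLOCK and ARNTL.
Ciart, chr3:95882229-95882478, minus strand: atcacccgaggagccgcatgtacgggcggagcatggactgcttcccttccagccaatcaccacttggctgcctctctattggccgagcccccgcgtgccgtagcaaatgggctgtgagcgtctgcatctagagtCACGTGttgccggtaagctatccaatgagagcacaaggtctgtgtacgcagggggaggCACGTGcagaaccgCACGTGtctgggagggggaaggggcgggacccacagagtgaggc
Bhlhe41, chr6:145865421-145865670, minus strand: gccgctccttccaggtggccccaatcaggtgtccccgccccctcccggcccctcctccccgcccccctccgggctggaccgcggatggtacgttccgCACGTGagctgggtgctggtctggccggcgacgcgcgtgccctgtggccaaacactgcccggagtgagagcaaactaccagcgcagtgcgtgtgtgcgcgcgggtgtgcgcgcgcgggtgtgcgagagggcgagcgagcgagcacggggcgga
Tef, chr15:81811164-81811413, plus strand: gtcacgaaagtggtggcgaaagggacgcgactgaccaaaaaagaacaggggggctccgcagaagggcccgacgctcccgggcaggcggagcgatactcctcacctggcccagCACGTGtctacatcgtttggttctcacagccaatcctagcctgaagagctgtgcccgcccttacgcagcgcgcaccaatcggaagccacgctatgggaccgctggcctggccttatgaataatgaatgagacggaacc
Ciart carried 3 E-boxes, whose first bases lay 116, 58 and 44 bases before the start. Bhlhe41 carried 1, at 153 bases, and Tef carried 1 in each of its 2 listed promoters, at 138 bases in the one shown and at 127 bases in the other. For scale, 7.15% of 32851 mouse promoter windows of 300 bases (250 before and 50 after the start) held CACGTG, and 0.0883% held 3 or more. The promoters of Dbp, Hlf, Nfil3, Rora and Usp2 did not contain these letters in the window. The E-box variant CACGTT (4.68% of promoters) and the D-box TTATGTAA or TTACGTAA (1.06%) were found in none of the 8 genes' windows. These matches describe the sequence and no binding was measured.

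Levels are given as CPM, the reads of a gene relative to the total counted in the library, after TMM scaling over the 28 libraries. All 9 genes were detected in both organs, and the most visible feature of their values was the spread between libraries of 1 group. Dbp, the PAR bZIP factor with the largest swing, was at 0.851, 128.3, 184.6 and 175.4 CPM in liver water 1340 replicates 1 to 4, and at 0.607, 196.4 and 91.0 CPM in liver water 2680 replicates 1 to 3. Each of these lowest values rested on 8 reads, and the highest library of the group was 217 and 324 times the lowest. Replicate 1 stood far below the other water libraries in both schedules. In the kidney, Dbp was at 4.95, 50.3, 40.6 and 58.7 CPM in water 1340 replicates 1 to 4 and at 6.42, 87.3 and 80.4 CPM in water 2680 replicates 1 to 3. Replicate 1 was again the lowest in each schedule.

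In the NMN groups the lowest Dbp values were less extreme. Dbp was at 8.31, 5.58, 25.1 and 162.2 CPM in liver NMN 1340 replicates 1 to 4 and at 12.8, 87.1 and 35.8 CPM in liver NMN 2680. In the kidney it was at 51.4, 43.9, 63.0 and 78.2 CPM in NMN 1340 and at 24.4, 96.6 and 77.9 CPM in NMN 2680. Thus 3 of the 4 liver NMN 1340 libraries lay below 3 of the 4 water libraries, and replicate 4 lay among them. That library also stood apart in quality: 12.8% of its reads fell outside annotated features, against 4.91% to 7.44% in the other liver libraries of that schedule. Its part in the result was not tested beyond the fits without it, given below.

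**Figure D1:**
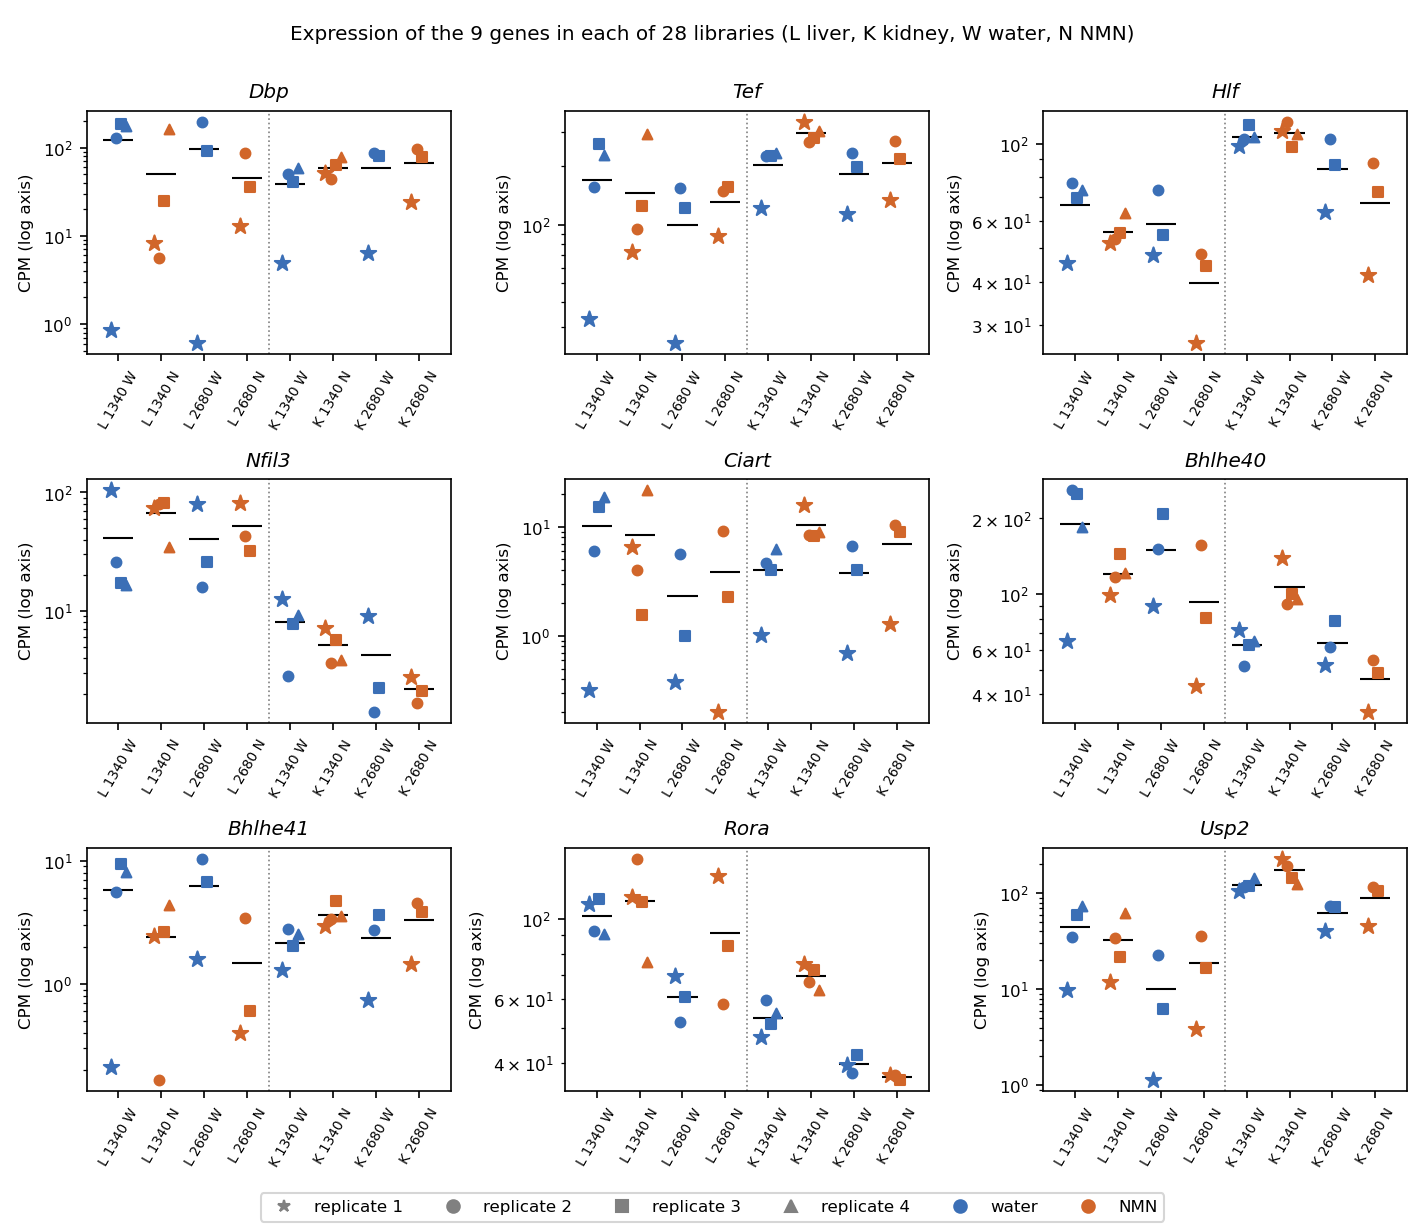
Level of each gene (CPM, log axis) in every library, grouped by organ, schedule and treatment, with the marker shape giving the replicate number and the colour the treatment. Replicate 1 was the lowest library for Dbp, Tef, Hlf, Ciart, Bhlhe41 and Usp2 in all 4 water groups and the highest for Nfil3.

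In all 4 water groups (liver and kidney, both schedules), replicate 1 had the lowest Dbp, Tef, Hlf, Ciart, Bhlhe41 and Usp2 and the highest Nfil3. It was the lowest for Bhlhe40 in 3 of the 4 groups and the highest in the fourth, kidney water 1340, and for Rora it was the lowest in 1 and the highest in 1. Several core clock genes had the same order: Arntl, Clock, Npas2 and Cry1 were highest in replicate 1 in all 4 water groups, and Nr1d2, Per3 and Cry2 were lowest. Nr1d1 was lowest there in 3 of the 4 groups and Per2 in 2, Per1 was lowest in 3 and highest in 1, and Csnk1d and Csnk1e took both ends. For example, Arntl, the partner of CLOCK, was at 28.6, 5.35, 1.97 and 1.28 CPM in liver water 1340 replicates 1 to 4 and at 21.8, 4.44, 4.75 and 3.86 CPM in kidney water 1340. In the NMN groups the pattern was partial, with replicate 1 lowest for Dbp in 2 of 4 groups and for Tef, Hlf, Bhlhe41 and Usp2 in 3 of 4, while Npas2 was highest in replicate 1 in all 4 of them too. Some NMN results below are therefore also given without the libraries numbered 1. For Dbp, leaving these libraries out of both arms moved the log2 fold change of NMN over water from -1.23 to -1.29 (liver 1340), from -1.09 to -1.24 (liver 2680), from 0.61 to 0.32 (kidney 1340) and from 0.20 to 0.055 (kidney 2680), with adjusted p between 0.294 and 0.876.

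Relative to other genes, the spread was large for most but not all members. The within-group SD of Dbp was 2.93 log2 units in the liver, above every other of 11982 genes, and 1.38 in the kidney, at percentile 99.97 of 14547 genes. The median gene had an SD of 0.294 log2 units in the liver and 0.189 in the kidney. Ciart, Usp2, Bhlhe41 and Tef had SDs of 1.75, 1.42, 1.41 and 1.11 in the liver. Hlf, at 0.322, and Rora, at 0.363, were close to the median gene there, and Rora, at 0.104, was among the steadier genes of the kidney (percentile 10.85). Bhlhe41 and Ciart rested on few reads in their lowest liver libraries (2 reads for Bhlhe41 in water 1340 and in NMN 1340, 3 for Ciart in water 1340 and NMN 2680), so that their spread includes counting error there.

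Tef, the second PAR bZIP factor, moved with Dbp. It was at 32.7, 157.5, 262.0 and 228.5 CPM in liver water 1340 replicates 1 to 4 and at 72.5, 95.0, 125.2 and 291.9 CPM in liver NMN 1340. Replicate 1 was the lowest of each group and NMN replicate 4 the highest of all 8. Nfil3, the D-box repressor, ran the other way, at 104.7, 25.9, 17.2 and 16.6 CPM in liver water 1340 and 73.9, 80.3, 81.1 and 34.3 CPM in liver NMN 1340. The libraries with the least Dbp held the most Nfil3.

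To measure this, the deviation of each gene from its group mean (log2 of CPM plus 0.5) was correlated with that of Dbp over the 14 libraries of an organ, giving 16 relations. In the liver, Tef followed Dbp with r = 0.98 (permutation p = 0.00046, adjusted over the 16 relations 0.00352) and Spearman's rho = 0.956 (p = 0.00091, adjusted 0.0059). Nfil3 was opposite, with r = -0.94 (permutation p = 0.00211, adjusted 0.00624) and rho = -0.916 (p = 0.00213, adjusted 0.0059). Bhlhe41 had r = 0.90 and rho = 0.868, both with a permutation p of 8e-05 and an adjusted p of 0.00128. The other liver relations were Usp2 (r = 0.86), Hlf (0.807), Ciart (0.799), Bhlhe40 (0.785) and Rora (-0.594), with adjusted permutation p between 0.00352 and 0.0113. Their rho ranged in size from 0.67 (Bhlhe40) to 0.78 (Usp2), with adjusted permutation p between 0.0059 and 0.0185. Without the 2 libraries farthest from the median Dbp, which were the water replicates 1 of both schedules, r was 0.944 for Tef, -0.853 for Nfil3 and 0.818 for Bhlhe41, and 0.56 for Bhlhe40, the weakest positive one. Within the 1340 and the 2680 schedule, the liver r was 0.978 and 0.985 for Tef and -0.959 and -0.919 for Nfil3. All values of 1 library share its scaling and its RNA.

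**Figure D2:**
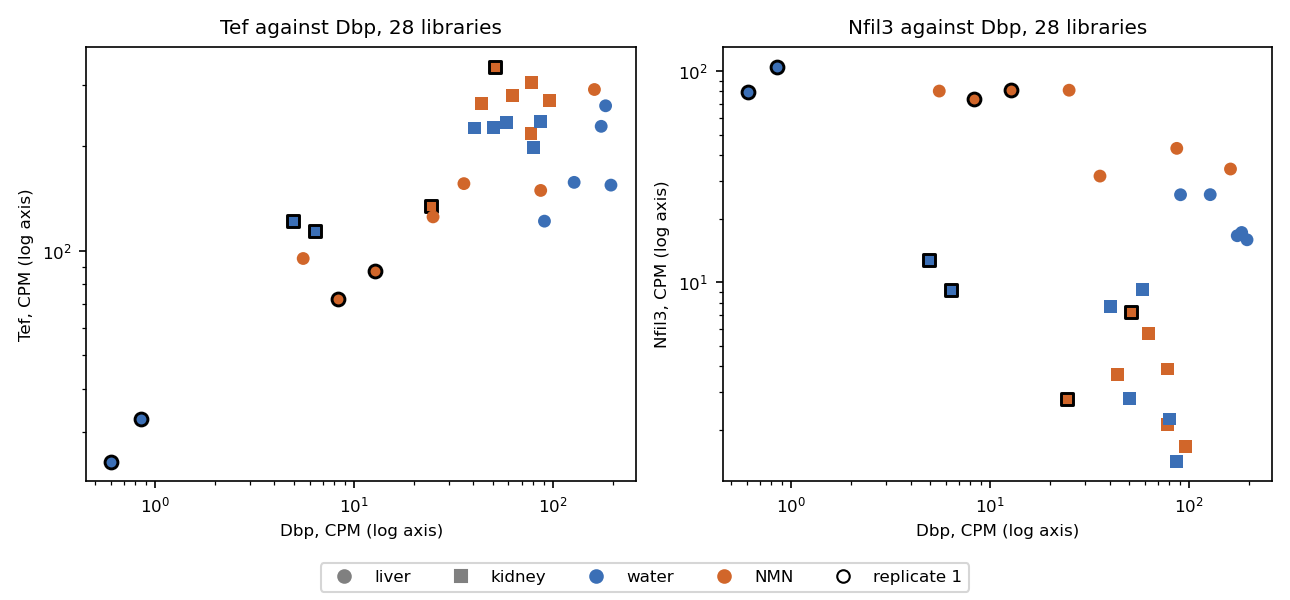
Tef (left) and Nfil3 (right) against Dbp in the 28 libraries, all in CPM on log axes, with circles for liver, squares for kidney, colours for treatment and black outlines for replicate 1. The 2 liver water libraries numbered 1 sit below 1 CPM of Dbp, where Tef is lowest and Nfil3 is near its highest.

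In the kidney, Tef (r = 0.94, rho = 0.859), Ciart (r = 0.889, rho = 0.815) and Bhlhe41 (r = 0.888, rho = 0.811) followed Dbp, with adjusted permutation p between 0.0059 and 0.0156. They kept r of 0.876, 0.821 and 0.857 without the 2 water libraries numbered 1, and 0.937, 0.857 and 0.825 within the 1340 schedule. Nfil3 had r = -0.76 (adjusted permutation p = 0.0246) and rho = -0.679 (adjusted 0.0313), which fell to -0.50 without those 2 libraries. Hlf (r = 0.658, adjusted p = 0.0246) did not pass by rank (rho = 0.609, adjusted 0.0611), and Usp2 had r = 0.601 (adjusted 0.0474) and rho = 0.556 (adjusted 0.0489). Both rested on the 2680 schedule: within 1340 they had r of 0.29 and 0.119, and within 2680 r of 0.834 and 0.87. Rora (r = 0.36, adjusted 0.327; rho = 0.218, adjusted 0.489) and Bhlhe40 (r = 0.268, adjusted 0.396; rho = 0.336, adjusted 0.344) showed no relation that passed the test, and for Bhlhe40 the sign differed between the schedules (r = -0.416 in 1340 and 0.804 in 2680). Whether these relations differed between the organs was not tested.

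The first comparison was NMN against water within each organ and schedule. With edgeR's quasi-likelihood test over all genes, 1 member in 1 of the 4 comparisons passed an adjusted p of 0.05: Bhlhe40, which rose in the kidney at 1340 mg/kg/d. The share of all tested genes called was 0.12% there (0.0668% higher with NMN), 0.0161% in the liver at 1340, 7.08% in the liver at 2680 and 0.4% in the kidney at 2680. When an adjusted p below 0.01 and at least a doubling or a halving were both required, 1.08% of genes and none of the 9 were called in the liver at 2680.

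Bhlhe40, which encodes the repressor DEC1, was at 139.1, 91.3, 100.3 and 95.4 CPM in kidney NMN 1340 replicates 1 to 4 and at 72.2, 51.8, 62.7 and 65.5 CPM in water. All 4 NMN libraries lay above all 4 water libraries. The means were 106.5 ± 21.99 and 63.0 ± 8.46 CPM (SD, n = 4), and the log2 fold change was 0.76 ± 0.13 (SE; edgeR adjusted p = 0.0393; exact permutation p = 0.0286 on CPM, two-sided, the smallest that 4 against 4 allows). With the libraries numbered 1 left out of both arms it was 0.69 (adjusted p = 0.0292). The call was lost without water replicate 2 (0.68, adjusted p = 0.0731), 3 (0.77, 0.0917) or 4 (0.77, 0.102), and in a fit of all kidney libraries (0.75, 0.0908), while over all these and the other settings the log2 fold change stayed between 0.61 and 0.83.

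The other kidney members at 1340 mg/kg/d lay mostly on the same side without passing the test. In 5 of the 9 genes (Tef, Ciart, Bhlhe40, Bhlhe41 and Rora) every NMN library was above every water library, against 2.31% of all tested genes. These 5 are not independent observations. Within the groups of this schedule, Tef, Ciart and Bhlhe41 varied together with Dbp (r of 0.937, 0.857 and 0.825). Rora was at 74.8, 67.1, 72.1 and 63.6 CPM with NMN and at 47.1, 59.6, 51.2 and 55.0 CPM with water (log2 fold change 0.38 ± 0.10, SE, adjusted p = 0.156). The 2 groups were separated by a narrow gap. Tef was at 339.5, 265.6, 280.8 and 305.1 CPM with NMN and at 121.7, 226.8, 225.9 and 234.9 CPM with water (0.55 ± 0.19, SE, adjusted p = 0.412). Water replicate 1 was far below the others, and without the libraries numbered 1 the value was 0.32 (adjusted p = 0.276). Ciart was at 15.7, 8.44, 8.13 and 8.85 CPM with NMN and at 1.02, 4.65, 4.04 and 6.21 CPM with water (1.36 ± 0.46, SE, adjusted p = 0.436), and 0.79 without the libraries numbered 1 (adjusted p = 0.17). Replicate 1 was the highest NMN and the lowest water library of Ciart. Bhlhe41 was at 2.93, 3.39, 4.67 and 3.54 CPM with NMN and 1.30, 2.77, 2.04 and 2.53 CPM with water (0.75 ± 0.27, SE, adjusted p = 0.402), and Usp2 overlapped between the groups (123.5 to 229.5 against 105.9 to 144.0 CPM). Nfil3 was the only one of the 9 with a negative value (-0.66 ± 0.41, SE, adjusted p = 0.688), and Hlf was level, at 107.1 ± 7.36 and 104.7 ± 6.21 CPM (SD, n = 4).

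Some features of the kidney libraries moved with treatment at 1340 mg/kg/d. The summed level of 4 proximal tubule markers (Lrp2, Slc34a1, Kap and Slc5a2, most of it Kap) was 13648 to 18644 CPM with NMN and 18546 to 25244 CPM with water. That of 2 thick ascending limb markers (Umod and Slc12a1, most of it Umod) was 2450 to 2752 and 1870 to 2262 CPM, with no overlap. In bulk tissue, a change in the share of a cell type and a change of RNA per cell cannot be told apart, and the part of these markers in the Bhlhe40 result was not tested. The NMN libraries were also shallower, with 13174264 to 14006288 counted reads against 15354270 to 15696435. After all libraries were thinned to the smallest, Bhlhe40 was at 0.75 (adjusted p = 0.042).

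**Figure D3:**
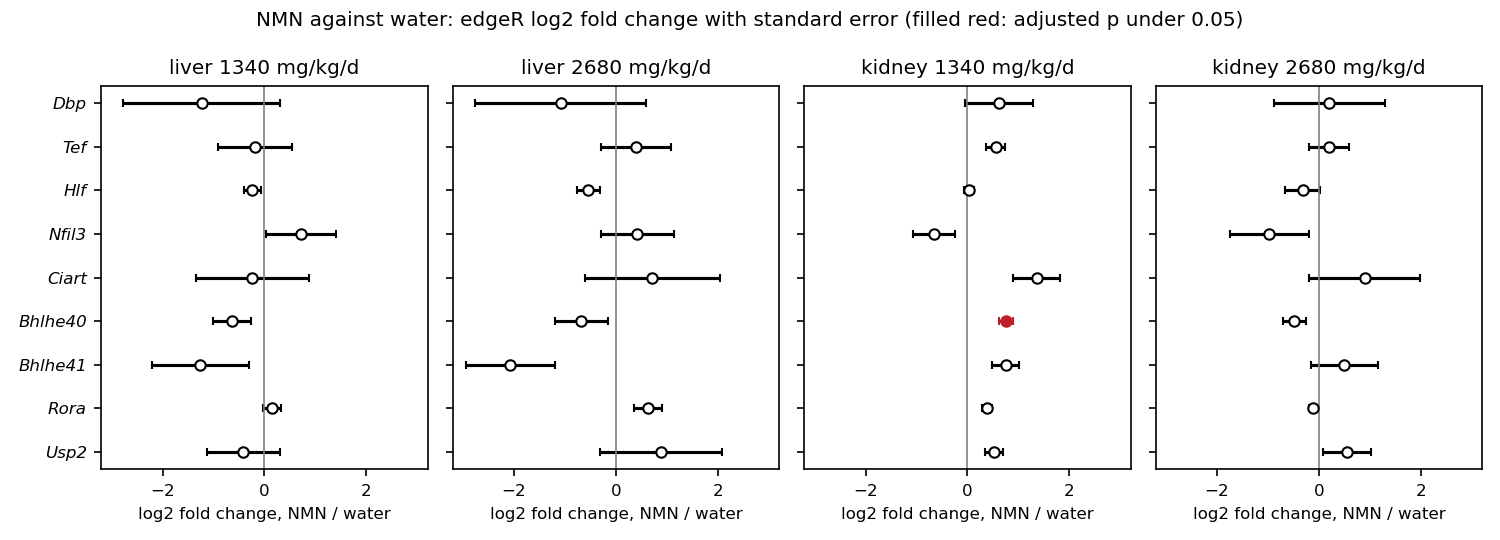
Log2 fold change of NMN over water (x axis) for each gene in the 4 comparisons, with bars for 1 standard error and filled red points for an adjusted p under 0.05. Bhlhe40 in the kidney at 1340 mg/kg/d (0.76 ± 0.13) is the 1 filled point, and the longest bars are those of Dbp in the liver (± 1.54 at 1340 and ± 1.68 at 2680 mg/kg/d).

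At 2680 mg/kg/d no member passed the test in the kidney. Bhlhe40 was at 34.2, 54.9 and 48.5 CPM with NMN and 52.1, 61.9 and 78.6 CPM with water (-0.48 ± 0.22, SE, adjusted p = 0.486), the opposite sign to 1340. Rora was at 37.0, 37.0 and 35.9 CPM with NMN and 39.4, 37.6 and 41.9 CPM with water (-0.11 ± 0.08, SE, adjusted p = 0.646). Its groups did not overlap, as for 9.01% of genes lower with NMN, and an exact permutation test of 3 against 3 cannot go below 0.1. Dbp was at 66.3 ± 37.5 with NMN and 58.0 ± 44.8 CPM with water (SD, n = 3), and Tef, Ciart, Bhlhe41 and Usp2 overlapped too. Usp2 was at 45.9, 117.4 and 106.4 CPM with NMN and 40.1, 73.1 and 72.6 CPM with water (0.54 ± 0.47, SE, adjusted p = 0.743). With the libraries numbered 1 left out of both arms, where the deviation is set by 2 libraries an arm, Usp2 was at 0.62 with an adjusted p of 0.00612.

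In the liver at 1340 mg/kg/d, none of the 9 genes had groups that did not overlap (3.54% of genes had). Dbp had a log2 fold change of -1.23 ± 1.54 (SE, adjusted p = 0.92), with a 95% interval of -4.24 to 1.78, and -3.22 (adjusted p = 0.823) without NMN replicate 4. Nfil3 was at 0.72 ± 0.69 (SE, adjusted p = 0.89), and at 1.73 (adjusted p = 0.134) without the libraries numbered 1. Bhlhe40 was at 99.7, 116.9, 144.3 and 121.2 CPM with NMN and at 65.2, 259.3, 249.2 and 184.5 CPM with water (-0.64 ± 0.38, SE, adjusted p = 0.815). The NMN values sat between the low water replicate 1 and the other water libraries. The 95% intervals of Tef (-1.60 to 1.23), Usp2 (-1.83 to 1.00) and Ciart (-2.41 to 1.94) were wide too, so that a doubling or a halving of these genes was not detectable with this spread. These intervals, and that of Dbp, were taken from the SE with a normal distribution. They are narrower than the quasi-likelihood test with so few libraries would give.

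In the liver at 2680 mg/kg/d, where 29.2% of genes did not overlap between the groups, all 9 genes did. Bhlhe41 was at 0.403, 3.43 and 0.600 CPM with NMN and at 1.59, 10.4 and 6.73 CPM with water (-2.07 ± 0.88, SE, adjusted p = 0.194). NMN replicate 2 lay inside the water range, and without it the value was -3.58 (adjusted p = 0.0254). Rora was at 131.3, 58.2 and 83.8 CPM with NMN and 69.6, 51.7 and 60.7 CPM with water (0.63 ± 0.28, SE, adjusted p = 0.208), and reached 0.88 (adjusted p = 0.0293) without that same library. With each library left out in turn, the Rora value ranged from 0.22 to 0.88 and its edgeR adjusted p from 0.0293 to 0.577. Hlf was at 26.6, 48.0 and 44.5 CPM with NMN and 47.6, 73.5 and 54.5 CPM with water (-0.54 ± 0.23, SE, adjusted p = 0.17), with 1 NMN library inside the water range. Dbp was at -1.09 ± 1.68 (SE, adjusted p = 0.754) and Usp2 at 0.89 ± 1.20 (SE, adjusted p = 0.712). Both values moved with single libraries: Dbp ranged from -1.96 without NMN replicate 2 to -0.051 without water replicate 2, and Usp2 from 0.020 to 2.32 without these same libraries, none of them called.

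Features of the liver libraries moved with treatment at 2680 mg/kg/d as well. The 6 hepatocyte markers (most of the sum is Alb) came to 151310 to 180390 CPM with NMN and 210070 to 239760 CPM with water. The 3 erythroid markers (Hba-a1, Hbb-bs and Alas2, most of it Alas2) came to 56.1 to 97.6 and 158.0 to 184.1 CPM. That fall lay in Alas2, with group means of 42.8 of 71.5 CPM with NMN and 143.5 of 167.8 CPM with water. Hba-a1 and Hbb-bs together were not lower. Reads outside annotated features took 3.90% to 5.06% with NMN and 3.27% to 3.62% with water. None of these 3 measures overlapped between the groups, and their part in the liver results at 2680 mg/kg/d was not tested. NMN replicate 1, with the highest Rora and the lowest Hlf and Bhlhe41 of this schedule's liver libraries, stood apart in other features. Its proximal tubule markers summed to 39.1 CPM, against 1.90 to 12.9 CPM in the others. Mitochondrial genes took 9.24% of its counted reads, against 5.74% to 7.37%. The part of these features was not tested beyond the fits without single libraries.

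Whether the NMN effect differed between schedules was asked with an interaction term, fitted to the 14 libraries of each organ. None of the 9 passed it in the liver (0.0746% of genes called) or the kidney (0.00625%). Bhlhe40 in the kidney had the smallest p among them, with an effect lower by 1.24 ± 0.26 log2 units (SE, unadjusted p = 0.000333) at 2680 than at 1340 mg/kg/d and an edgeR adjusted p of 0.533. DESeq2, run as an alternative, gave an adjusted p of 0.00389 for it. Rora followed at -0.50 ± 0.13 (SE, unadjusted p = 0.00102, adjusted 0.606).

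Whether it differed between organs was asked in the same way within each schedule. At 1340 mg/kg/d, edgeR called 0 of 15614 genes (904 at an unadjusted p under 0.05, and 26 by DESeq2), and Bhlhe40 was at 1.41 ± 0.42 (SE, adjusted p = 0.604), kidney minus liver. Without liver water replicate 1 it was 1.69 with an adjusted p of 0.00158. At 2680 mg/kg/d, 2.65% of genes were called and none of the 9. Bhlhe41 was at 2.56 ± 1.15 (SE, adjusted p = 0.244) and Rora at -0.72 ± 0.32 (SE, adjusted p = 0.232), or -0.94 (adjusted p = 0.0257) without liver NMN replicate 2. With each library left out in turn, Bhlhe41 ranged from 1.96 to 4.12 (edgeR adjusted p from 0.0516 to 0.43). Rora ranged from -0.94 to -0.34 (adjusted p from 0.0257 to 0.428). Of the listed clock genes, Tspan4, a clock output, was the 1 called there (0.90 ± 0.22, SE, adjusted p = 0.0438).

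Other clock genes were read from lists chosen by name. Of 14 core clock genes, 0 were called in the kidney in either schedule and 0 in the liver at 1340 mg/kg/d. In the liver at 2680, where 7.08% of all tested genes were called, 1 of the 14 was called higher and 1 lower. Per1, a negative limb gene, was among those genes of the list that did not pass the test there (1.37 ± 0.51, SE, adjusted p = 0.153). In the kidney at 1340 the smallest p values were those of Nr1d1 (1.03 ± 0.28, SE, adjusted p = 0.319), Csnk1e (0.35, adjusted p = 0.51) and Per1 (0.99, adjusted p = 0.579). Nr1d1, which encodes the repressor REV-ERB alpha and shares 8.55% of its exon bases with Thra on the other strand, was at 47.2, 55.4, 81.5 and 47.7 CPM with NMN and 21.1, 31.3, 20.2 and 41.0 CPM with water, without overlap. In the kidney at 2680, Csnk1d (0.17, adjusted p = 0.438) and Per1 (1.16, 0.589) were among the smallest, as were Clock (0.44, 0.465) and Cry2 (-0.41, 0.792) in the liver at 1340.

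Downstream, 8 genes known as PAR bZIP targets were examined, of which all 8 were tested in the liver, 6 in the kidney at 1340 and 7 at 2680. In the liver at 2680 mg/kg/d, where 7.08% of all tested genes were called, 2 rose. Por, the reductase that supplies electrons to cytochromes P450, rose from 279.4 ± 112.4 to 617.9 ± 155.9 CPM (SD, n = 3; 1.17 ± 0.28, SE, adjusted p = 0.0446). Nr1i3 (CAR), a nuclear receptor of drug metabolism, rose from 74.5 ± 9.75 to 191.1 ± 36.2 CPM (1.38 ± 0.16, SE, adjusted p = 0.00141), but 74.9% of its exon bases are shared with Tomm40l on the other strand, so that its counts are uncertain. In the kidney at 2680, where 0.4% were called, Pdxk, which makes the active form of vitamin B6, rose from 28.3 ± 5.97 to 49.7 ± 2.64 CPM (0.82 ± 0.13, SE, adjusted p = 0.0334), with 39.0% of its bases shared with an antisense gene. The 4 proximal tubule markers summed to 14920 to 18936 CPM with NMN and 20829 to 22472 CPM with water in that schedule, without overlap. The NMN libraries there were deeper, with 22922994 to 33872983 counted reads against 16358886 to 18983689, and had fewer reads outside annotated features (6.45% to 6.62% against 6.85% to 7.36%). The part of these features in the Pdxk result was not tested. Neither Dbp, Tef nor Hlf was called in these 2 comparisons. Of 6 other clock outputs, Nampt, the rate-limiting enzyme of NAD+ salvage, rose in the liver at 2680, from 52.6 ± 8.41 to 85.9 ± 8.25 CPM (0.73 ± 0.17, SE, adjusted p = 0.0303).

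In the kidney at 1340 mg/kg/d, 8 of the 9 members, 10 of 14 core clock genes, 6 of 6 tested PAR bZIP targets and 6 of 6 other outputs had positive log2 fold changes, with medians of 0.55, 0.18, 0.42 and 0.46, while 50.3% of all tested genes were positive and their median was 0.0011. So were 8 of 8 glucocorticoid response genes (median 0.79), of which Per1 and Tsc22d3 are also counted in the clock lists, and 8 of 8 immediate early genes (median 0.90). Several members varied together between libraries, as given above, so that such counts are not counts of independent genes. None of the genes of these 5 other lists passed the test there. Their part in the Bhlhe40 result was not tested.

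The second comparison was between organs in the water mice, where 66.9% (1340) and 70.5% (2680) of tested genes were called, so that a call is common. In both schedules the kidney had more Hlf (log2 0.68 ± 0.16 and 0.56 ± 0.20, SE, adjusted p = 0.00161 and 0.0254) and less Nfil3 (-2.32 ± 0.77 and -3.18 ± 1.01, adjusted p = 0.0307 and 0.0393), Bhlhe40 (-1.57 ± 0.37 and -1.20 ± 0.30, adjusted p = 0.0041 and 0.00659) and Rora (-0.90 ± 0.13 and -0.58 ± 0.13, adjusted p = 2.86e-05 and 0.00216). Usp2 was higher in the kidney at 1340 (1.47 ± 0.50, SE, adjusted p = 0.0315), and at 2680 it was at 2.64 ± 0.95 (adjusted p = 0.0582). These fits were unpaired. With the replicate number as a block, which pairs liver and kidney libraries, Usp2 at 2680 was called (3.09, adjusted p = 0.0461). So were Bhlhe41 at 2680 (-1.30, adjusted p = 0.00499) and Ciart at 1340 (-0.99, adjusted p = 0.0494). In the block fits, the edgeR adjusted p of Nfil3 was 0.0113 (1340) and 9.77e-09 (2680). That of Bhlhe40 was 0.0364 and 2.12e-05. Several of the unpaired calls were close to the threshold and were lost when 1 library was left out, with the direction kept. Usp2 at 1340 was not called without any 1 of 5 of the 8 libraries (1.36 to 1.63, adjusted p between 0.053 and 0.0755), nor Nfil3 at 1340 without any 1 of 3 of them (-2.39 to -2.04, adjusted p between 0.059 and 0.0768). At 2680, without any 1 of 4 of the 6 libraries, Hlf (0.38 to 0.54, adjusted p between 0.067 and 0.126) and Nfil3 (-3.47 to -2.28, adjusted p between 0.0519 and 0.137) were not called. Other calls were gained in this way: without liver water replicate 1, Bhlhe41 (-1.80, adjusted p = 0.000127) and Ciart (-1.72, 0.0129) at 1340 and Bhlhe41 (-1.88, 0.00567) and Usp2 (2.05, 0.0308) at 2680, and Usp2 at 2680 also without liver water replicate 2 (4.06, 0.00423). At 2680, Bhlhe40 was not called when no filter on low counts was used (-1.17, adjusted p = 0.0677).

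The steadiest organ difference was that of Rora, at 109.7, 92.2, 113.2 and 90.5 CPM in liver water 1340 and 47.1, 59.6, 51.2 and 55.0 CPM in kidney water 1340. Every liver library lay above every kidney library of that schedule. Nfil3 was at 79.4, 15.9 and 25.9 CPM in liver water 2680 and 9.13, 1.41 and 2.25 CPM in kidney water 2680, again without overlap. The core clock genes that were called included Cry2 and Cry1, lower in the kidney in both schedules, and at 2680 Csnk1e, which was higher, and Csnk1d, which was lower. Dbp had no detectable organ difference at this spread (-1.64 ± 1.24 and -0.70 ± 1.74, SE). The organ labels matched their markers: 6 hepatocyte markers summed to 112990 CPM or more in every liver library and to 2124 or less in every kidney library, and the proximal tubule markers to 67.2 or less in every liver library.

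Per kilobase of exon (FPKM), the order of the median levels over the 7 liver water libraries was Dbp (42.9), Bhlhe40 (39.2), Tef (19.7), Nfil3 (12.8), Hlf (10.4), Rora (6.92), Usp2 (4.77), Ciart (2.48) and Bhlhe41 (1.00). The ranges of all neighbours in this order overlapped. In the kidney it was Tef (28.7), Usp2 (21.98), Dbp (16.8), Hlf (15.4), Bhlhe40 (13.3), Nfil3 (3.79), Rora (3.604), Ciart (1.79) and Bhlhe41 (0.376). There, the step from Bhlhe40 (lowest library 11.01 FPKM) to Nfil3 (highest 6.26 FPKM) was the only one without overlap between neighbours. Of the exon bases, 18.0% of Dbp are shared with Sphk2 and 19.0% of Bhlhe41 with Gm43909 on the other strand, and the counting ignored strand, so that the levels of these 2 genes are the least certain. The shared bases were under 5% for the other 7. The order also differed between the schedules that these medians pool. In kidney water 2680 the median levels were 26.9 FPKM for Dbp, 25.3 for Tef and 15.1 for Usp2, and in liver water 2680 Bhlhe40 (32.2) stood above Dbp (30.4) and Bhlhe41 (1.00) above Ciart (0.44).

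**Figure D4:**
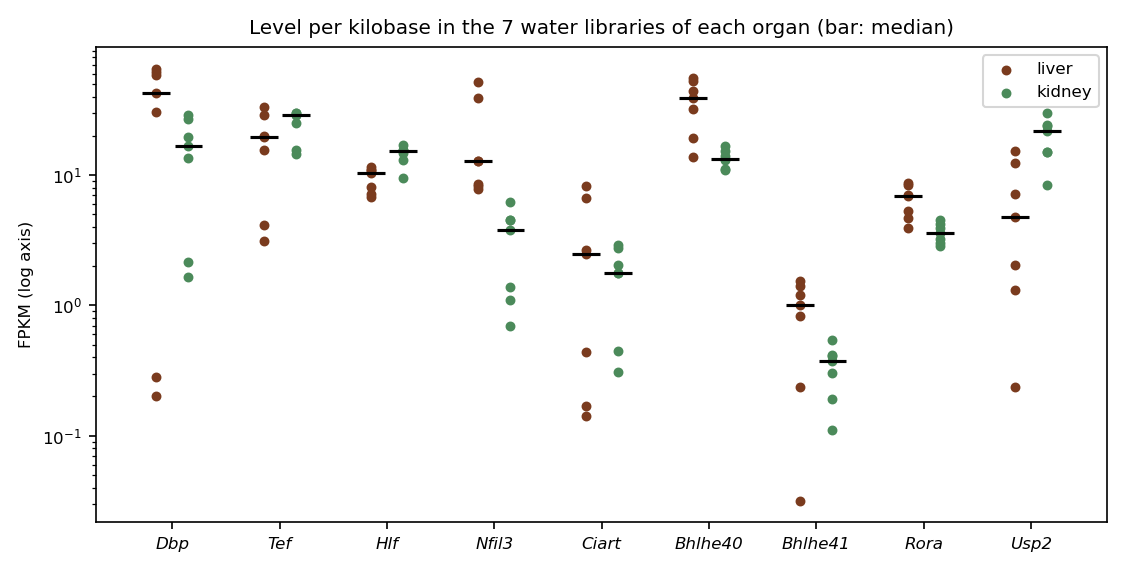
Level per kilobase (FPKM, log axis) of each gene in the 7 water libraries of the liver (brown) and of the kidney (green), with a bar at the median. Dbp spans 0.203 to 65.6 FPKM in the liver, whereas Rora spans 2.87 to 4.56 FPKM in the kidney.

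The third comparison was between the water mice of the 2 schedules, where 4.44% of genes were called in the liver and 18.3% in the kidney. Rora was lower at 2680 in both organs. In the liver it was at 69.6, 51.7 and 60.7 CPM against 109.7, 92.2, 113.2 and 90.5 CPM (-0.77 ± 0.16, SE, adjusted p = 0.0146), and in the kidney at 39.4, 37.6 and 41.9 CPM against 47.1, 59.6, 51.2 and 55.0 CPM (-0.44 ± 0.10, SE, adjusted p = 0.00553). Neither pair of groups overlapped. The liver call was lost without water 2680 replicate 2 (-0.65, adjusted p = 0.094) or 3 (-0.78, 0.0573) and in a fit of all liver libraries (-0.77, 0.087). Usp2 was lower in the kidney, at 40.1, 73.1 and 72.6 CPM against 105.9, 114.9, 117.5 and 144.0 CPM (-0.98 ± 0.22, SE, adjusted p = 0.0194), a call lost without water 1340 replicate 1 (adjusted p = 0.052) or 2 (0.0547) and in a fit of all kidney libraries (0.0798). Dbp, Tef, Nfil3, Ciart, Bhlhe40 and Bhlhe41 did not pass in either organ, nor did Hlf in the kidney (-0.33 ± 0.13, SE, adjusted p = 0.0966). Hlf in the kidney ranged from -0.49 to -0.16 with each library left out in turn. It was called without water 2680 replicate 2 (-0.49, adjusted p = 0.022). With the replicate number as a block, which the labels do not tie to anything shared between the schedules, Dbp (0.76, adjusted p = 1.32e-05), Hlf (-0.35, 0.0159) and Nfil3 (-1.03, 0.00281) were called in the kidney as well, where 21.2% of all genes were called.

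Among the listed genes, Per1 was lower at 2680 in both organs, by 1.97 ± 0.40 in the liver (log2, SE, adjusted p = 0.0275) and 1.51 ± 0.14 in the kidney (adjusted p = 6.45e-06). In the kidney the other core clock genes that were called included Csnk1d (-0.41) and Cry1 (-1.08), which were lower, and Nr1d1 (1.39), which was higher, with adjusted p between 0.00279 and 0.0435. Of the other clock outputs, Tsc22d3 (-1.64) and Tspan4 (-0.77) were lower and Nampt (0.39) higher in the kidney, and of the PAR bZIP targets Cyp2b10, a drug-metabolizing cytochrome P450, was lower in the liver (-1.90 ± 0.38, SE, adjusted p = 0.0114). Other features of the libraries differed between the schedules: 3 adipocyte markers (Adipoq, Plin1 and Cfd, most of it Cfd) summed to 125.1 to 152.8 CPM in kidney water 2680 and 9.23 to 37.4 CPM in kidney water 1340, and mitochondrial genes took 19.8% to 21.6% against 9.10% to 10.6% of counted reads. Reads outside annotated features took 6.85% to 7.36% in kidney water 2680 and 9.21% to 12.5% in kidney water 1340. In the kidney the summed markers of endothelium were higher at 2680 without overlap (110.6 to 149.3 against 66.6 to 108.8 CPM). So was the sum for smooth muscle and fibroblasts (Acta2, Col1a1 and Dcn, 69.7 to 82.4 against 51.95 to 65.7 CPM). That rise lay in Dcn, with group means of 38.1 of 74.6 CPM and 22.3 of 60.1 CPM. The hepatocyte sum was higher too (1706 to 1803 against 1057 to 1432 CPM, most of it Cyp2e1), again without overlap. That rise lay in Cyp2e1, with group means of 1671.5 of 1754.7 CPM and 1113.4 of 1256.6 CPM. The rest of either sum was not higher. Collecting duct markers were lower (225.7 to 250.5 against 262.7 to 367.7 CPM). Most of that fall was in Aqp2, at 134.0 of 234.7 CPM and 193.0 of 297.4 CPM as group means. In the liver the hepatocyte markers summed to 210070 to 239760 CPM in water 2680 and 122670 to 167340 CPM in water 1340, without overlap. The 3 smooth muscle and fibroblast markers (most of it Dcn) summed to 219.8 to 288.0 and 174.0 to 191.7 CPM, also without overlap. That difference lay in Dcn, with group means of 237.9 of 245.95 CPM and 177.3 of 186.2 CPM. The endothelial markers did not overlap either (59.6 to 64.5 and 32.2 to 50.9 CPM). Mitochondrial genes took 5.74% to 7.37% and 3.89% to 5.34% of counted reads there, and reads outside annotated features 3.27% to 3.62% and 5.01% to 7.43%, again without overlap. The part of these features in the Rora, Usp2 and Per1 results was not tested.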

How the data were processed

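Poly(A) RNA of liver and kidney was sequenced in 28 libraries. Alignment was by STAR. The authors assigned reads to genes with HTSeq-count (intersection-strict, strand ignored), and the deposited values are the raw counts. The article's mouse build name, mm19, matches no mouse assembly. Identifiers were matched to GENCODE M21 (53229 with version, 1180 without, 37 not at all). Strandless counting makes genes that overlap on the other strand uncertain. Replicates are labelled libraries, and p-values measure the spread between them.

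Groups came from the labels. Each comparison was fitted in R 4.3.3 with edgeR 4.0.16 (filterByExpr, TMM, robust quasi-likelihood test) on its own libraries, with Benjamini-Hochberg adjustment over all tested genes and a threshold of 0.05. The fits were tested on simulated data with 200 genes changed 2-fold or 4-fold. For NMN against water in liver 1340, liver 2680, kidney 1340 and kidney 2680, 47%, 46%, 77% and 82% of 2-fold changes were recovered. Unchanged genes called there numbered 8, 15, 9 and 22. DESeq2 1.42.0 was an alternative. Printed CPM use TMM factors over all 28 libraries, and FPKM divide them by exon length. No replicates of a group agreed within sampling noise.

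The members, lists and rule for named genes (all 9 members, listed genes past the threshold, of which the organ comparison names the core clock only, the 3 core clock genes of smallest p per NMN comparison and the 5 genes most like Dbp per organ) were chosen with earlier results of these data known. Results for some core clock genes are not reported here, among them calls in the liver with NMN at 2680 mg/kg/d, between the organs and between the schedules. Same-numbered liver and kidney libraries of water mice deviated together (r of 0.115 to 0.334 at 1340 and 0.123 to 0.257 at 2680 mg/kg/d, every pair above 0.1). The number was therefore used as a pairing there in an alternative fit, while the reported fits were unpaired. Same-numbered libraries of NMN mice did not all deviate together (lowest r -0.009 and -0.006).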

Additional observations from a re-analysis of the deposited data

Results flagged for a closer look

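In each of the 36 sets of 4 libraries (9 genes in 4 groups of the 1340 mg/kg/d schedule), the highest and the lowest library were compared with the nearest other by Dixon's criterion, which chance alone meets in about 1 in 20 sets, and 5 sets met it. Dbp in liver NMN 1340 replicate 4 was the highest at 162.2 CPM, with the next at 25.1, and Nfil3 in that same library was the lowest at 34.3 CPM, with the next at 73.9. Nfil3 in liver water 1340 replicate 1 was the highest at 104.7 CPM, with the next at 25.9. Tef in kidney water 1340 replicate 1 was the lowest at 121.7 CPM, with the next at 225.9. Ciart in kidney NMN 1340 replicate 1 was the highest at 15.7 CPM, with the next at 8.85. The first 2 belong to the library in which 12.8% of reads fell outside annotated features, and the next 2 to the water libraries numbered 1.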

How the results depend on the processing

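Of the single-gene values tallied, most kept their direction and their side of the threshold. Under other settings 546 did, against 26 that passed only there, 19 that no longer passed and 1 that changed sign. With 1 library left out, these numbers were 529, 10, 23 and 26. For differences of the NMN effect and for the water schedules, the tally covers only some of the 9 genes. Outside it, the replicate block turned Usp2 in the kidney schedule interaction from 0.026 to -0.0055. It also turned Ciart in the kidney, water 2680 against water 1340, from -0.11 to 0.080. Neither was called. The spread between libraries of 1 group, 3 or 4 libraries an arm, and the few reads of Bhlhe41 and Ciart in the liver limit these comparisons. The causes of the changes were not tested. The settings below are given in the order liver 1340, liver 2680, kidney 1340, kidney 2680 for NMN against water, where the reported fit called 2, 883, 18 and 61 genes and 0, 0, 1 and 0 of the 9.

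DESeq2 called 74, 1448, 159 and 236 genes, with 1 of the 9 in the liver at 2680 (Bhlhe41) and 2 in the kidney at 1340 (Bhlhe40 and Rora). Without a filter on low counts 44, 1785, 269 and 514 genes were called, with 3 of the 9 (Hlf, Bhlhe41 and Rora) in the liver at 2680 and 4 (Tef, Bhlhe40, Rora and Usp2) in the kidney at 1340. The fit of all libraries of an organ called 6, 1007, 17 and 35 genes, with 0 of the 9 in the kidney at 1340. The strict criteria (adjusted p below 0.01, at least a doubling or a halving) left 0, 135, 2 and 3 genes and 0 of the 9 in the kidney at 1340. Leaving out the libraries numbered 1 in both arms, a setting chosen after seeing the data, called 15, 488, 15 and 196 genes, with 1 of the 9 (Usp2) in the kidney at 2680, and turned Nfil3 there to 0.058 (-0.98 in the reported fit).

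For the schedule interaction (10 genes in the liver and 1 in the kidney), DESeq2 called 99 and 10, no filter 71 and 106, and the strict criteria 6 and 0. In the kidney, Bhlhe40 was the 1 member called by DESeq2 and without a filter, and 0 genes were called with at least 10 counts in every library or with thinned counts. A fit of all libraries was not run for this comparison, which already uses all 14. For the organ difference of the NMN effect (0 genes at 1340 and 419 at 2680), DESeq2 called 26 and 1232, no filter 9 and 1307 (with 4 of the 9 at 2680), all libraries 7 at 1340, and the strict criteria 60 at 2680. For kidney against liver, no filter called 10832 and 11697 genes, with 3 (Hlf, Bhlhe40 and Rora) and 2 (Hlf and Rora) of the 9, and the strict criteria 6016 and 6474 genes with 1 of the 9 in each schedule. For the water mice of the 2 schedules in the liver, DESeq2 called 1002 genes, no filter 1236, at least 10 counts 305 and the strict criteria 169 and 0 of the 9, and all libraries in one fit 0 of the 9. In the kidney the strict criteria left 350 genes and 0 of the 9, and all libraries in one fit 1 of the 9.

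NMN and water libraries shared only a number: same-numbered libraries did not deviate together throughout (r from -0.123 to 0.193). With the number as a replicate block, 16 genes were called in the liver at 1340, 75 in the kidney at 1340 and 92 at 2680, and 1153 in the liver at 2680 with 3 of the 9 (Hlf -0.55, Bhlhe41 -2.26 and Usp2 1.18), where every library correlated best with its own number. The block gave 2 genes and 1 member (Bhlhe40, adjusted p = 0.00423) for the schedule interaction in the kidney, 2 genes at 1340 and 1 member (Bhlhe41) at 2680 for the organ difference of the NMN effect, and 1038 genes in the liver, and 3239 with 5 of the 9 (2787 with 2 in the reported fit) in the kidney, for the water mice of the 2 schedules. In kidney against liver it changed no call beyond those of Ciart, Bhlhe41 and Usp2 given above.

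With each library left out in turn, 0 to 18 genes were called in the liver at 1340, 211 to 1308 in the liver at 2680 (with 0 to 2 of the 9), 5 to 67 in the kidney at 1340 (0 to 1 of the 9) and 3 to 191 in the kidney at 2680. The schedule interaction gave 7 to 25 genes in the liver and 0 to 1 in the kidney, and the organ difference of the NMN effect 0 to 9 (0 to 1 of the 9) at 1340 and 118 to 1347 (0 to 1 of the 9) at 2680. Kidney against liver gave 9075 to 10275 genes (3 to 7 of the 9) at 1340 and 9548 to 10945 (2 to 5 of the 9) at 2680, and the water schedules 310 to 657 genes (0 to 1 of the 9) in the liver and 1632 to 2880 (1 to 3 of the 9) in the kidney. These values took both signs, none of them called: in the liver at 1340, Tef (-0.80 to 0.11) and Ciart (-1.35 to 0.25); in the liver at 2680, Tef (-0.070 to 0.83), Nfil3 (-0.11 to 1.34) and Ciart (-0.92 to 2.46); in the kidney at 1340, Hlf (-0.0083 to 0.085); and in the kidney at 2680, Dbp (-0.34 to 0.62), Tef (-0.060 to 0.42) and Nfil3 (-1.39 to 0.26). So did the schedule interaction of Bhlhe40 in the liver (-0.60 to 0.29) and of Bhlhe41 in the kidney (-0.69 to 0.20), the organ difference of the NMN effect of Bhlhe40 at 2680 (-0.14 to 0.80), and kidney against liver for Tef at 1340 (-0.075 to 0.55) and Dbp at 2680 (-1.33 to 0.33). Of the called values of kidney against liver, those of Bhlhe40 and Rora passed with every library left out in both schedules, as did Hlf at 1340. At 1340, Nfil3 ranged from -2.63 to -1.28 (not called without kidney replicate 2, 3 or 4) and Usp2 from 1.13 to 1.81 (not called without liver replicate 2 or 3 or kidney replicate 2, 3 or 4). At 2680, Hlf (0.38 to 0.73) and Nfil3 (-4.42 to -2.28) were not called without liver replicate 1 or 3 or kidney replicate 2 or 3.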

Other observations

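Apart from the 9 genes, those whose deviations from the group means followed Dbp most closely differed by name between the organs. Among 9359 liver genes with a mean of at least 5 CPM, these were Trim12a (r = 0.955), Anks4b (0.953), Slc38a3 (0.936), a glutamine transporter, Sorbs3 (0.925) and Tns2 (0.919), over 14 libraries. Among 10282 kidney genes they were Nr1d2 (r = 0.953), which encodes the clock repressor REV-ERB beta, Pitpnc1 (0.951), Per3 (0.942), a period gene of the clock, Calcoco1 (0.926) and Epha1 (0.913). These are the highest values of a search over all these genes and are given as a description. All values of 1 library share its RNA and its scaling.

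Markers of tissue near the organs were read too. The 3 adipocyte markers summed to 111.7 to 212.2 CPM in kidney NMN 2680, against 125.1 to 152.8 CPM in kidney water 2680. Of 4 adrenal cortex markers, Cyp11b1 and Cyp11b2 were at 0 in all 8 groups, and the remaining signal (1.96 to 4.05 CPM as group means) came almost entirely from Star. Of the glucocorticoid response genes in the kidney at 1340 mg/kg/d, Fkbp5, which encodes a co-chaperone of the glucocorticoid receptor, had the smallest p (log2 fold change 0.94 ± 0.17, SE, edgeR adjusted p = 0.0829), with NMN higher. In the kidney of the water mice, where 18.3% of all tested genes were called, 5 of the 8 genes of this list were lower in the 2680 than in the 1340 schedule. They were Per1 (-1.51), Tsc22d3 (-1.64), Sgk1 (-1.14) and Klf9 (-0.58), with adjusted p between 6.45e-06 and 0.00343, and Tat, which was at 0 in all 3 libraries at 2680 and at 1.31 ± 0.127 CPM (SD, n = 4) at 1340. Junb (log2 fold change 0.57, adjusted p = 0.0296) was the 1 immediate early gene that was higher. The marker sums and mitochondrial share that differed between these same libraries are given above, and their part in these calls was not tested. The 4 proximal tubule markers summed to 48.3 to 67.2 CPM across liver libraries at 1340 mg/kg/d. At 2680 they summed to 39.1 CPM in liver NMN replicate 1 and to 1.90 to 12.9 CPM across the other liver libraries.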
